A study of Homo sapiens with 2 samples.

Results

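The genes described here make, cut and phosphorylate the backbone of sphingolipids: the ceramide synthases CERS2, CERS5 and CERS6, the sphingomyelinase SMPD1, the ceramidases ACER2, ACER3 and ASAH1, the sphingosine kinases SPHK1 and SPHK2, and the lyase SGPL1. They are 10 of the 19775 genes that the platform annotation names, chosen by pathway around ACER2, which was picked on the ratio of its signals in these arrays, so that ratio is given as a description. Every probe set annotated to 1 of them alone was used, which gave 27 of the 54675 probe sets for 9 of the 10 genes. No probe set annotated to SPHK2 alone was found, so its signal was not analysed and it enters only the promoter windows below. DLD-1, a human colorectal carcinoma line that carries a mutated p53 of its own, had been stably transfected with wild-type p53 under tet-off control, so that tetracycline keeps the transgene silent. In the p53 off group the cells were grown in tetracycline, and in the p53 on group they had been without it for 9 h. The sources used here do not say whether the transfected line was 1 clone. Each group is 1 array of 1 RNA, so a ratio below describes these 2 arrays, has no replicate error and was not tested. The transgene and the absence of tetracycline cannot be told apart, and in RNA from whole cultures neither can more RNA per cell and more cells that express a gene.

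Ceramide is the hub of sphingolipid metabolism. It is made by joining a fatty acid to a sphingoid base, or released from sphingomyelin, and ceramidases split it into sphingosine, which sphingosine kinases turn into sphingosine 1-phosphate. Ceramide is known for its part in growth arrest and cell death and sphingosine 1-phosphate as a signal for survival and migration, and the lyase ends the pathway by cleaving the latter irreversibly. ACER2, the alkaline ceramidase of the Golgi, is known as a p53 target gene.

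Windows of 250 bases before a RefSeq gene start (GRCh38.p14) were found for 8 of the 10 genes, 11 windows in all. Those of ACER2 and ACER3 are shown because both ceramidase genes were higher with p53 on. ACER2 lies at chr9:19408759-19409008 and ACER3 at chr11:76860668-76860917, both on the plus strand. Capitals mark GC boxes, the letters GGGCGG on either strand.
ACER2: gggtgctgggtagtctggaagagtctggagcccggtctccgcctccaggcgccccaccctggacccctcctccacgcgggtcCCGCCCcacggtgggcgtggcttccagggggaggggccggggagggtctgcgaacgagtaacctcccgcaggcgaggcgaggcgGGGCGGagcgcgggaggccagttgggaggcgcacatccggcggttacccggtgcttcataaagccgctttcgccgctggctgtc
ACER3: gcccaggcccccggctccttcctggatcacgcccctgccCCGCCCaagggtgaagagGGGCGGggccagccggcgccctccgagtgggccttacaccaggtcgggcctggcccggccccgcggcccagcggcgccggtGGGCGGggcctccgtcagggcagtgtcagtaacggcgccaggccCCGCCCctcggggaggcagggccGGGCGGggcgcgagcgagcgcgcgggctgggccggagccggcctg
Both windows were rich in G and C, at 72.4% for ACER2 and 81.2% for ACER3, against a median of 58% over all 35116 promoter windows of this length. The p53 half-site, the 10-base consensus that reads the same on both strands, was found in neither window. It was present in 1 of the 11 windows, 1 of the 3 of SPHK1, and in 5.57% of all promoter windows. Its first base lay 103 bases before that start, and it is shown in capitals with 10 bases on each side because SPHK1 was the other gene with a large ratio (chr17:76385165-76385194, plus strand).
SPHK1: gaggggtgagGAGCTAGTCCgtcggaggga
A full p53 site, 2 half-sites at most 13 bases apart, was found in 0 of the 11 windows and in 0.0256% of all windows. A GC box was found in 9 of the 11 windows and in 42.6% of all. All 11 windows had more G and C than the median of 58%, from 62.8% to 81.2%, and the share was not matched for this. SPHK1 and SPHK2 gave more than 1 window each, so the windows are not separate genes. These are matches of letters in short windows and describe no binding.

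The values are linear MAS5 signals, 1 per probe set and array, with a mean of 500.1 on both arrays once the lowest and highest 2% were left out. A floor of 112.4, the median signal of all probe sets that are not controls, separated dim from measured signals, and a ratio with 1 signal under it is a bound, written "at least". On the brightest probe set of each gene, 3 of the 9 genes had a p53 on signal at least 1.5 times as high (ACER2, ACER3 and SPHK1), as did 25.9% of all 13915 measured genes. Lower by that size were 4 of the 9 (CERS2, CERS5, CERS6 and SMPD1), against 25.9% of all genes. ASAH1 and SGPL1 lay between. At 2-fold, 3 of the 9 were higher and 1 was lower, beside 15.3% and 13.5% of all genes. Both counts of higher genes include ACER2, which was picked on its ratio. They also include SPHK1, which passed the floor through the p53 on array alone and could only be higher. The median log2 ratio of the 9 genes was 0.14 and that of all measured genes 0.0035. With so few genes these shares do not set the group apart from the arrays as a whole.

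**Figure D1:**
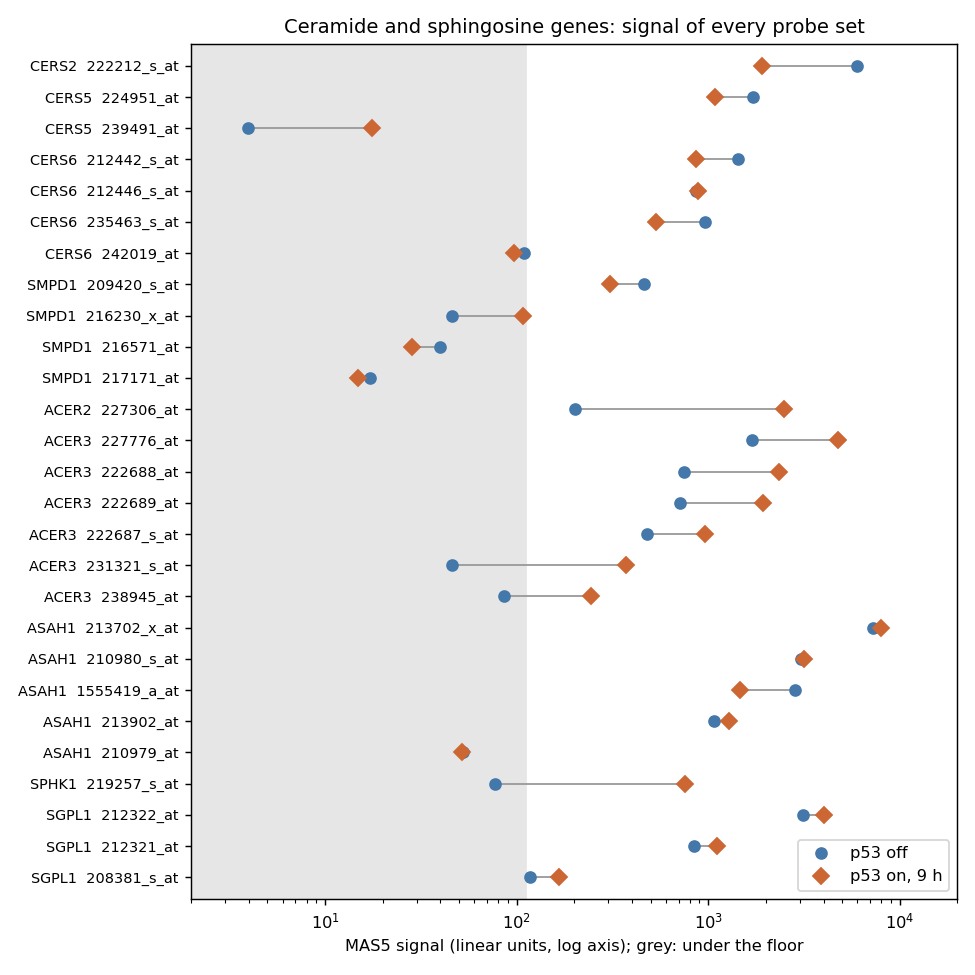
Signal of each of the 27 probe sets (rows) on the p53 off array (circles) and the p53 on array (diamonds), in linear MAS5 units on a log axis, with the range under the floor of 112.4 in grey. ACER2, SPHK1 and all 6 ACER3 probe sets lie further right with p53 on, while CERS2 lies further left.

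The arrays differed as a whole in ways that touch these ratios. The beta-actin control read 1.37 times as much at its 3' end as at its 5' end with p53 off and 7.29 times as much with p53 on, and the GAPDH control 0.97 and 1.77 times. The array hybridized with p53 on RNA also had brighter spike-ins, by a median factor of 1.89. Scaling to them would move the median gene to a log2 ratio of -0.83, with 9.35% of genes higher and 59.5% lower by 1.5-fold, so directions are relative to the median gene. The part of these differences in the ratios was not tested. Of 11 colon epithelial markers 9 were above the floor on both arrays, led by KRT18, while KRT20 and CDX1 were under it on both. Markers of other cells were dim, with summed signals of 521.1 and 917.4 over 6 leukocyte, 592.8 and 962.6 over 7 fibroblast and 392.4 and 687.5 over 6 endothelial genes (p53 off and p53 on), against 111039 and 175791 over the epithelial ones. Above the floor on both arrays were 2 leukocyte, 1 fibroblast and 1 endothelial markers. Under it on both were 3 of 6, 2 of 7 and 2 of 6, and the rest had 1 signal under it, which fixed their direction. At least 1.5-fold higher with p53 on were 3, 2 and 2, the brightest of them LAPTM5 at 247.9, and 0, 1 and 0 were lower by that size. Of the few measured markers of each of these cell types, a larger share was higher than the 25.9% of all measured genes. Of the epithelial markers 4 were higher and 1 lower, where the share of all measured genes was 25.9% in each direction. PTPRC, CD14, CD3E, COL1A1, COL3A1, KDR and TEK were under the floor on both. The part of these dim signals in the ratios was not tested.

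The 3 ceramidase genes differed from each other, with ACER2 and ACER3 higher with p53 on and ASAH1 mixed. ACER2 had 1 probe set (227306_at), whose signal was 200.8 in the p53 off culture and 2480 in the p53 on culture. The first value was brighter than 64.8% of all probe sets on its array and the second than 93.2%. The p53 on signal was 12.4-fold higher (log2 ratio 3.63), and only 89 of the 13915 measured genes, 0.64%, had a larger ratio. No other probe set repeats this measurement. Scaled to the spike-ins the log2 ratio was 2.71, and over the 9 other alternatives it ran from 3.05 to 3.75, so the direction did not depend on how the arrays were scaled.

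ACER3, the alkaline ceramidase that prefers ceramides with unsaturated chains, was the member with most probe sets. Its brightest one (227776_at) read 1701 (p53 off) and 4772 (p53 on), 2.80-fold higher. Probe set 222688_at read 751.4 and 2328, and 222689_at read 710.4 and 1940. All these signals were far above the floor on both arrays and gave close ratios, 1.49, 1.63 and 1.45 on the log2 scale. Probe set 222687_s_at, designed on the same source sequence as 222688_at, read 481.2 and 967.0, the smallest ratio at 1.01. All 4 of these probe sets were at least 2-fold higher, as were 13.6% of the 19023 probe sets above the floor on both arrays. The dimmest pair had p53 off signals under the floor and could therefore only read higher. Probe set 231321_s_at read 45.8 and 373.6, at least 3.32-fold higher, and 238945_at read 86.1 and 243.7, at least 2.17-fold higher. A floor at the 60th percentile gave 238945_at a bound of 0.53 on the log2 scale. With a pseudocount equal to the floor its ratio was 0.84, and that of 222687_s_at 0.86, so neither then reached 2-fold. Probe sets of 1 gene read the same RNA and are not replicates. After spike-in scaling the brightest probe set had a log2 ratio of 0.57 and 222687_s_at of 0.088. The 4 probe sets above the floor on both arrays thus kept the sign, but ACER3 was then just under 1.5-fold. The dimmest pair could not have turned lower.

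ASAH1, the acid ceramidase of lysosomes, did not follow the alkaline enzymes. Its brightest probe set (213702_x_at) read 7232 (p53 off) and 7971 (p53 on), a log2 ratio of 0.14. Probe set 210980_s_at read 3035 and 3160, and 213902_at read 1066 and 1280, so 3 probe sets were within 1.5-fold of no difference. One probe set went the other way. It was 1555419_a_at, at 2830 and 1463, 1.93-fold lower. The log2 ratios within this gene thus spanned 1.22, against a median span of 0.83 over the 6676 genes with more than 1 measured probe set. A span widens with the number of probe sets, which was 4 for ASAH1 and was not matched in that median. The last probe set, 210979_at, was under the floor on both arrays, at 52.7 and 52.1. The direction for ASAH1 flipped with the choice of probe set, to -0.95 without probe sets whose names end in _s_at or _x_at, and with spike-in scaling, to -0.78. No direction is given for it.

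Of the sphingosine kinases, SPHK1, which makes sphingosine 1-phosphate at the plasma membrane, had 1 probe set (219257_s_at). It read 77.0 with p53 off, under the floor, and 755.2 with p53 on. The second signal was at least 6.72-fold higher, a log2 ratio of at least 2.75. The gene passed the floor through the p53 on array alone, so its ratio could only be higher. On the log2 scale, a floor at the 60th percentile gave a bound of 2.16, and spike-in scaling one of 1.83. The floor at the 40th percentile lay just under the p53 off signal, and the plain log2 ratio was then 3.29.

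SGPL1, the lyase of the endoplasmic reticulum, had a small difference that all 3 of its probe sets shared. Probe set 212322_at read 3133 (p53 off) and 4045 (p53 on), 212321_at read 840.4 and 1110, and 208381_s_at read 117.6 and 166.7. The log2 ratios of 0.37, 0.40 and 0.50 spanned 0.13, and none reached 1.5-fold. With spike-in scaling the brightest probe set turned to -0.55, so the sign depends on the scaling.

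**Figure D2:**
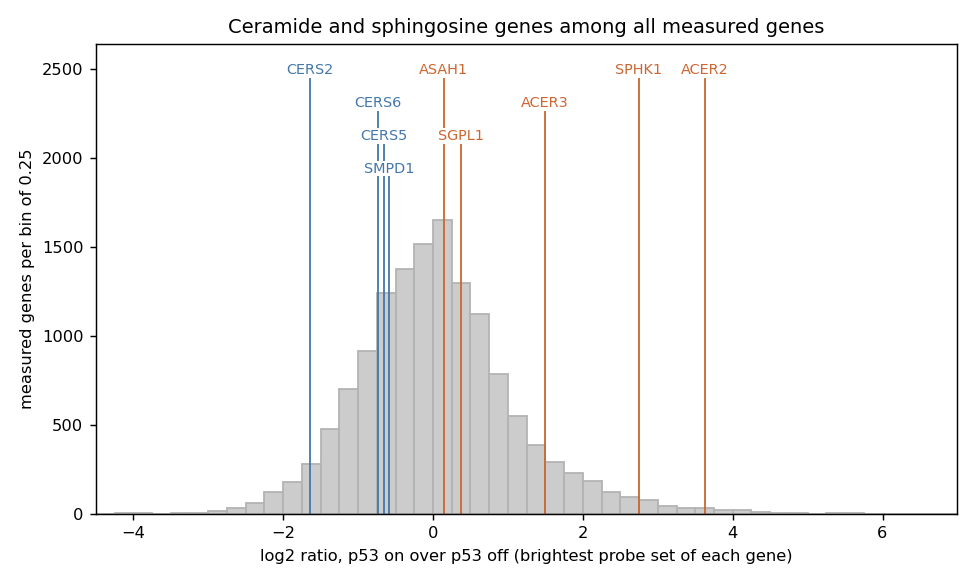
Number of measured genes (vertical axis) by log2 ratio of p53 on over p53 off in bins of 0.25 (horizontal axis), with a line at the ratio of each of the 9 genes (its height carries no value). ACER2 at 3.63 and SPHK1 at 2.75, a bound, lie in the right tail, CERS2 at -1.64 in the left one, and the others in the body or shoulder of the distribution.

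The brightest probe sets of CERS2, CERS5 and CERS6 all read lower with p53 on, while CERS3, a ceramide synthase of the wider list, read 128.9 and 168.8 (p53 off and p53 on), close to the floor. CERS2, the synthase of very-long-chain ceramides, had 1 probe set (222212_s_at), which read 5952 (p53 off) and 1903 (p53 on). The p53 on signal was 3.13-fold lower, a log2 ratio of -1.64, and 3.72% of measured genes had a lower one. CERS5, which makes ceramides with palmitic acid, read 1709 and 1088 on 224951_at, 1.57-fold lower. Its other probe set, 239491_at, was far under the floor at 4.0 and 17.6 and gives no ratio. The CERS5 difference was near the threshold, and 23.4% of all measured genes had a lower ratio.

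CERS6, the closest relative of CERS5 with the same preference for palmitic acid, was measured on 3 probe sets that did not agree in size. Probe set 212442_s_at read 1437 and 865.9 (p53 off and p53 on), 1.66-fold lower, and 235463_s_at read 963.7 and 536.3, 1.80-fold lower. Probe set 212446_s_at read 858.2 and 887.8, with no difference to speak of (log2 ratio 0.049). The remaining one, 242019_at, was under the floor on both arrays at 109.2 and 96.4. CERS6 was thus lower on 2 of 3 measured probe sets.

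SMPD1, the acid sphingomyelinase that releases ceramide in lysosomes, read 463.9 (p53 off) and 308.9 (p53 on) (209420_s_at). The ratio was a log2 value of -0.59, at the 1.5-fold threshold itself. Its other 3 probe sets, 216230_x_at, 216571_at and 217171_at, of which the last 2 share a source sequence, were under the floor on both arrays, with signals from 14.8 to 108.6. After loess on mean signal CERS5, CERS6 and SMPD1 had log2 ratios of -0.50, -0.58 and -0.57, each just short of 1.5-fold, while CERS2 was at -1.55. Of these 4 genes, CERS2 alone was at least 2-fold lower.

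**Figure D3:**
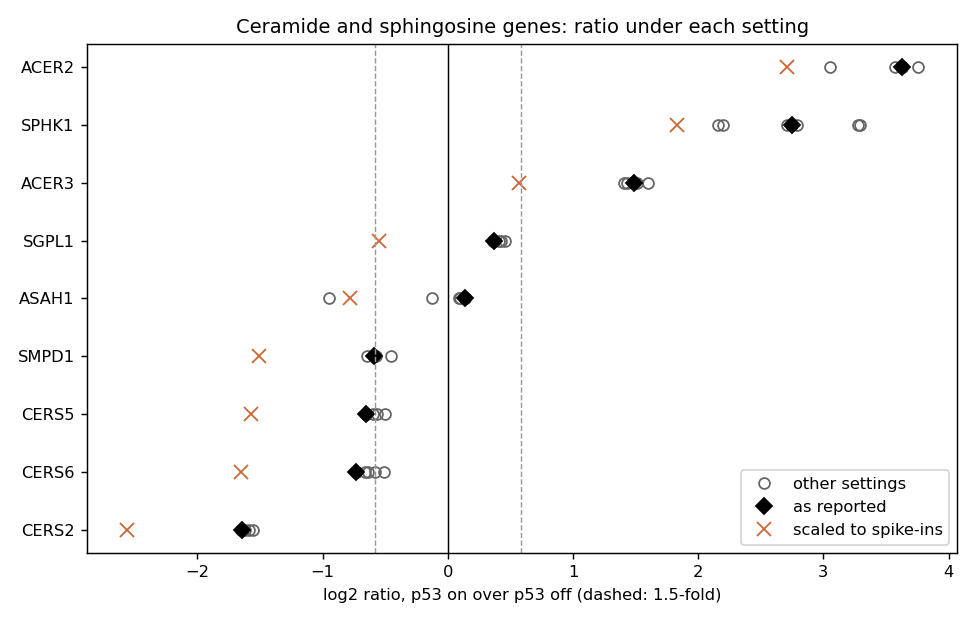
Log2 ratio of p53 on over p53 off (horizontal axis) for each of the 9 genes (rows) as reported (diamonds), after scaling to spike-ins (crosses) and under the other alternatives (open circles), with dashed lines at 1.5-fold. ACER2 and SPHK1 lie right of the upper line and CERS2 left of the lower one under every setting that measured them, while ASAH1 and SGPL1 have points on both sides of 0.

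The wider pathway was read from a list of 58 further sphingolipid genes. Of these, 50 had a probe set of their own and 43 were measured. Past 1.5-fold, 11 of the 43 were higher and 13 lower, and 19 lay between, with a median log2 ratio of 0.071, close to the 25.9% in each direction and the median of 0.0035 over all genes. The list as a whole therefore did not stand apart. At 2-fold, 6 of the 43 were higher and 6 were lower, beside 15.3% and 13.5% of all genes.

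Enzymes that use up ceramide by other routes were among the higher ones. SGMS1, the Golgi sphingomyelin synthase, read 761.0 (p53 off) and 3837 (p53 on), 5.04-fold higher, the largest ratio in the list. CERK, which phosphorylates ceramide, read 1648 and 7579, 4.60-fold higher. Both rest on 1 probe set. Their relatives did not all go the same way, since SGMS2, the other sphingomyelin synthase, read 1665 and 995.9, 1.67-fold lower, and UGCG, which makes glucosylceramide, read 2331 and 1451, 1.61-fold lower. SGMS2 and UGCG had 3 measured probe sets each, and only the brightest is given. CERT1, the protein that carries ceramide from the endoplasmic reticulum to the Golgi, read 1761 and 772.2, 2.28-fold lower, and all 4 of its probe sets were lower, with log2 ratios from -1.63 to -1.05. GLTP, a glycolipid transfer protein, was 2.07-fold higher at 2318 and 4793, and 4.28-fold higher on its other probe set. After spike-in scaling the log2 ratio of its brightest probe set was 0.13, under 1.5-fold. SMPD2, a neutral sphingomyelinase, read 270.8 and 85.3, at least 2.41-fold lower. This bound rests on the floor, and its log2 value of -1.27 was -0.68 with the floor at the 60th percentile and -0.96 with a pseudocount equal to the floor.

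In de novo synthesis 2 of 9 measured ones were higher and 4 lower by 1.5-fold, against 25.9% of all genes in each direction. SPTLC1, a subunit of the serine palmitoyltransferase that starts the pathway, read 8971 and 9646. SPTLC2, its partner, read 1631 and 961.6, 1.70-fold lower, on the brightest of its 4 measured probe sets. SPTSSA, a small activating subunit, read 2635 and 4996, 1.90-fold higher. ORMDL3, an inhibitor of the same enzyme, read 801.0 and 304.1, 2.63-fold lower, the only one of the 9 past 2-fold. As other ceramidases the list held ACER1, ASAH2 and ASAH2B, and ACER1 and ASAH2 were not measured. The probe sets of ASAH2B disagreed, with log2 ratios of -1.10 and 0.57.

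**Figure D4:**
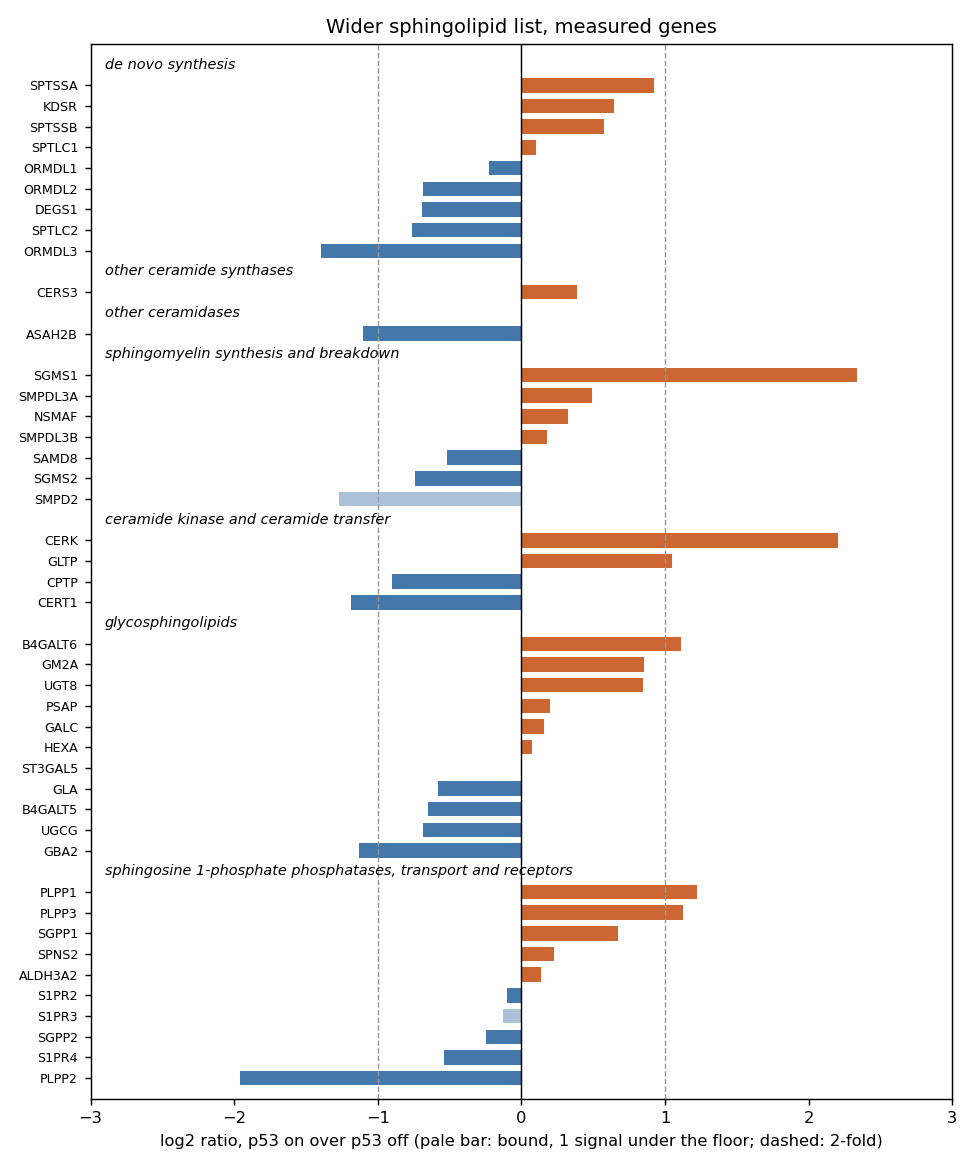
Log2 ratio of p53 on over p53 off (horizontal axis) for the 43 measured genes of the wider sphingolipid list (rows, by group), with dashed lines at 2-fold and pale bars where 1 signal was under the floor. SGMS1 at 2.33 and CERK at 2.20 reach furthest to the right and PLPP2 at -1.96 furthest to the left, and each group of 4 or more genes has bars on both sides.

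Genes that end or relay the sphingosine 1-phosphate signal were mixed as well, with 3 of 10 measured genes higher and 1 lower by 1.5-fold, where the share of all genes was 25.9% each way. Among the lipid phosphate phosphatases, membrane enzymes that can act on sphingosine 1-phosphate, PLPP1 read 1626 and 3795, 2.33-fold higher, and PLPP3 506.1 and 1101, 2.18-fold higher. The other probe set of PLPP1 was 1.72-fold higher, and those of PLPP3 were 2.23-fold and 1.78-fold higher. After spike-in scaling the log2 ratios of PLPP1 and PLPP3 were 0.30 and 0.20, under 1.5-fold. PLPP2, of the same family, went the other way at 1630 and 417.9, 3.90-fold lower. SGPP1, a phosphatase specific for phosphorylated sphingoid bases, read 2293 and 3651, 1.59-fold higher. The receptor genes S1PR2, S1PR3 and S1PR4 were dim, with signals from 30.4 to 195.4, and S1PR1 and S1PR5 were under the floor on both arrays.

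Among the glycosphingolipid genes, 3 of 11 measured ones were higher and 3 lower by 1.5-fold, near the 25.9% of all genes in each direction. B4GALT6, a lactosylceramide synthase, read 692.6 and 1498, 2.16-fold higher. Its other measured probe sets were 2.20-fold and at least 1.56-fold higher, and spike-in scaling took its log2 ratio to 0.19, under 1.5-fold. B4GALT5, its relative, read 2293 and 1459, 1.57-fold lower, on the brighter of its 2 measured probe sets. GBA2, a glucosylceramidase outside lysosomes, was 2.19-fold lower at 696.4 and 317.7, and its other probe set was also lower, at a log2 ratio of -0.86.

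Outside sphingolipid metabolism, the genes whose brightest probe sets came closest to that of ACER2 in log2 signal on both arrays were PIWIL4, EDAR and RAB11FIP3. PIWIL4, a Piwi protein gene, read 184.4 and 2435, EDAR, the ectodysplasin receptor gene, 222.4 and 2392, and RAB11FIP3, the gene of a Rab11 effector, 202.0 and 2216. Their distances from ACER2 over the 2 arrays were 0.13, 0.16 and 0.16 on the log2 scale. Likeness over 2 arrays means only a similar pair of signals.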

How the data were processed

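Gene expression was measured with 1 Affymetrix array per condition. Per the submitters' processing notes, the authors used MAS5, and the deposited table holds 1 linear signal intensity for each probe set and array. The sources used here name no version, scaling target or detection call. No further normalization was added. Having 1 array per condition limits the precision.

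Gene names came from the platform annotation held by GEO, with symbols updated through Entrez identifiers to RefSeq (GRCh38.p14). Of 54675 probe sets, 41091 had 1 symbol, 1801 had several, 11721 were unnamed here and 62 were controls. Signals below the median (50th percentile) of all signals outside the controls, 112.4, were raised to that floor. The probe set brightest on average stands for its gene, which is not measured where both its signals were under the floor. All genes of the list were named. From the wider list, the 3 highest and 3 lowest genes and those past 2-fold were named by rule, and the others after their values were seen. Markers of cell types were named to check the label. The genes closest to ACER2 were the 3 with the smallest Euclidean distance in log2 signal. The members and lists were chosen with earlier results of these data known. Protein sequences were not used here. The procedure was tested on simulated data, with changes planted only in genes whose p53 off signal was well above the floor. Signals as dim as those of ACER2 and SPHK1 with p53 off were not covered. The 10 alternatives are described with their effects below. Python 3.11.15, numpy 2.4.6, pandas 2.3.3, statsmodels 0.14.6 and matplotlib 3.10.9 were used.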

Additional observations from a re-analysis of the deposited data

Results flagged for a closer look

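The array controls, which belong to none of the genes above, read differently in the 2 hybridizations. With p53 on, beta-actin was 7.29 times and GAPDH 1.77 times as bright at the 3' end as at the 5' end, beyond the factors of 1.37 and 0.97 with p53 off. Signals of the 18 spike-in probe sets were higher with p53 on by a median factor of 1.89 (1.47 to 2.59).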

How the results depend on the processing

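Floors at the 40th and 60th percentile, a pseudocount of 1 or of the floor without flooring, loess, spike-in scaling, quantile normalization, centring on the median gene, the mean of all measured probe sets and leaving out probe sets named _s_at or _x_at were tried. ACER2 was at least 1.5-fold higher under all 10, but it was picked on this ratio and the alternatives reuse the same 2 signals. CERS2 kept direction and size class under the 9 that measured it. So did SPHK1, whose direction was fixed wherever its p53 off signal lay under the floor. ACER3 kept its size class under all but spike-in scaling (log2 ratio 0.57). After loess 1 of the 9 genes was at least 1.5-fold lower, CERS2, beside 24.9% of all genes. Without probe sets named _s_at or _x_at, 5 genes were measured and 2 were lower, CERS5 and ASAH1, beside 24.1% of all genes. With spike-in scaling the median log2 ratio was -0.78 for the 9 genes and -0.76 for the wider list, beside -0.83 for all genes. Of the wider list 2 genes were then higher and 27 lower by 1.5-fold, beside 9.35% and 59.5% of all genes. The cause was not tested. No paired analysis was possible because each condition has 1 array. Signals near the floor limit SPHK1, SMPD1, SMPD2, 2 ACER3 probe sets and the receptors.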
